A study of Bos taurus with 12 samples.

Results

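The comparison followed cattle embryos made in vivo from the blastocyst at Day 7 to the conceptus at Day 13, about the time at which the bovine trophoblast starts to lengthen. It rests on 6 of the study's 12 Affymetrix bovine arrays, namely the 3 labelled as Day 7 embryos and the 3 labelled as Day 13 embryos of in vivo origin, and on 24016 of the 24128 probe sets, since 112 are control probe sets. Donor cows had been superovulated to give the embryos. Some blastocysts were frozen at Day 7 and combined into 3 pools of 25. Others were placed in heifers at the same stage of the cycle, 10 to each heifer, collected at Day 13, frozen one by one and combined into 3 pools of 5 conceptuses. No group carried a genetic change or a drug treatment beyond the superovulation that all these embryos share. The labels call the pools biological replicates, without naming the donors, sires or heifers behind them, so p-values measure the spread between pools. Pools are numbered as the labels number the replicates. Pool size, the stay in a heifer and the day changed together and cannot be told apart. The remaining 6 arrays hold embryos made in vitro at the same days, and they enter here through the shared estimate of the spread and a closing comparison of the day effects.

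A blastocyst is a hollow sphere whose outer epithelium, the trophectoderm, pumps sodium and water inward and whose inner cell mass separates into epiblast, the source of the fetus, and hypoblast, the source of the yolk sac lining. In cattle the conceptus floats free in the uterus after hatching, is fed by uterine secretions, and turns from a sphere into an ovoid and then a filament before it attaches. During this time the trophoblast secretes interferon tau, the ruminant signal of pregnancy, and begins to make trophoblast Kunitz domain proteins and pregnancy-associated glycoproteins, while hypoblast cells line the cavity and lay down basement membrane. In bulk pools of this kind, a lower share of a cell type and less RNA per cell of that type cannot be told apart.

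Values are log2 probe set intensities, and a gene is read from its brightest probe set among those that carry 1 symbol, which gave 9155 genes. Background was set at 3.39 from 48 control probe sets without a target in the RNA (their 99th percentile), and 3018 genes were at background on all 6 arrays. Markers of the embryonic lineages were found on all 6 arrays. Of 11 measured trophoblast markers, all exceeded background in at least 1 Day 13 pool and 10 in all 3, and their summed level was 14.07 to 15.02 at Day 7 and 15.86 to 16.15 at Day 13. Summed hypoblast markers were at 13.68 to 14.4 and 14.11 to 15.2, with HNF4A, CUBN and TTR at background, and summed epiblast markers, of which 3 were measured, at 8.82 to 10.23 and 7.00 to 9.48. The sums add unlogged intensities, so the brightest members weigh most and other members can go the other way, as GATA6 and PDGFRA do below. The 6 markers of endometrial epithelium (OXTR, PGR, ESR1, SERPINA14, PAEP and LTF) were at background on every in vivo array. On a longer list of endometrial genes, 3 of 13 measured exceeded background on at least 1 in vivo array. Between 41.3% and 42.01% of probe sets exceeded background on each array, and correlations across probe sets were 0.963 to 0.985 within a group and 0.931 to 0.958 between the days. The 3′ minus 5′ difference of GAPDH was 5.58, 5.65 and 5.59 at Day 7 and 4.62, 2.85 and 4.57 at Day 13, and that of actin was 1.75, 1.59 and 1.74 at Day 7 and 2.67, 4.29 and 1.99 at Day 13. Day 13 pool 2 therefore stood apart on both measures. Its part in the results was not tested beyond leaving it out and fits with the GAPDH difference as a covariate or with array weights. GAPDH was lower and actin higher in every Day 13 pool than in every Day 7 pool. On these arrays both differences therefore changed together with the day.

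From Day 7 to Day 13, 247 genes rose and 256 fell by limma (adjusted p below 0.05, Benjamini-Hochberg over every probe set tested). These 503 genes are 5.49% of the 9155 measured, 2.7% higher and 2.8% lower, and the median difference of all genes was 0. In probe sets the counts were 911 called (3.79% of 24016), 408 higher (1.7%) and 503 lower (2.09%). The groups of 3 pools did not overlap for any of the called genes, against 21.1% of all genes, called or not. By count, large changes were more often rises. Of the 154 called genes that changed by at least 3 on the log2 scale, 98 were higher and 56 lower at Day 13. In 44 of the rising genes all Day 7 pools were at background and all Day 13 pools above it, while 12 of the falling genes took the opposite course. The count moved with the model. It was 241 probe sets when the 6 in vivo arrays were fitted alone, 1774, of which 19.6% were higher, after centring the arrays on 59 genes of ribosomal proteins, and 513 with the GAPDH 3′ minus 5′ difference as a covariate. Leaving out 1 in vivo array gave 676 to 923 called probe sets, of which 40.2% to 55.6% were higher. Centring on ribosomal protein genes lowered all differences by 0.49, so for each gene group the counts under that scaling are given too. Counts of called members in a gene group are to be read beside the 5.49% of all genes that were called.

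**Figure D1:**
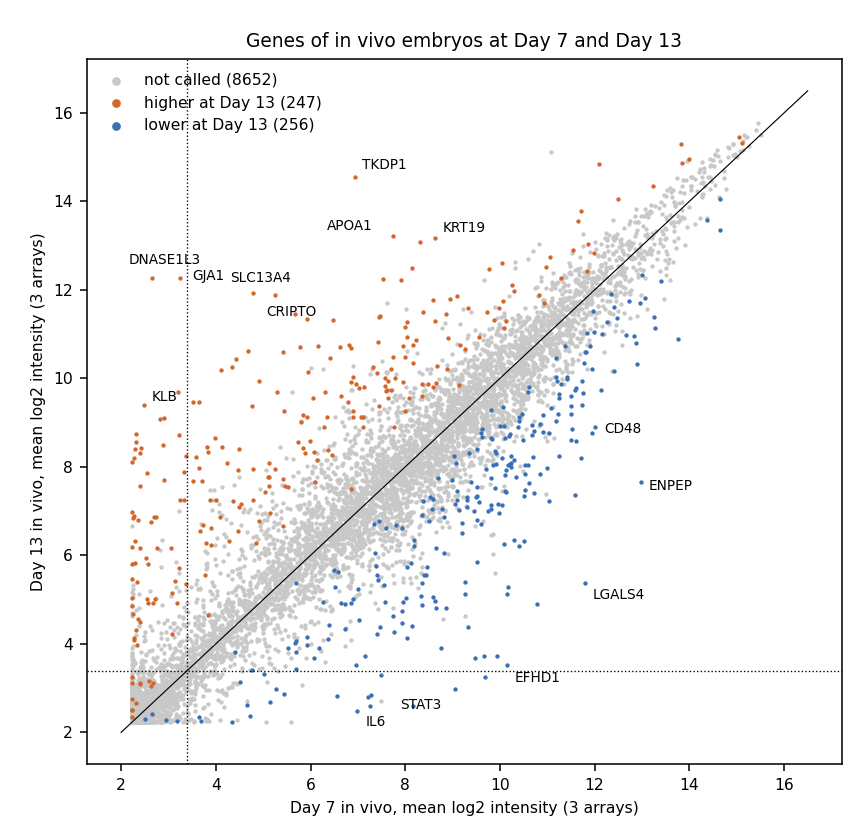
Mean log2 intensity of 9155 genes in the 3 Day 7 pools (horizontal axis) and the 3 Day 13 pools (vertical axis) of in vivo embryos. Orange points are the 247 genes higher at Day 13, blue points the 256 lower, grey points genes that were not called, the solid line marks equal levels and the dotted lines the background of 3.39. Many of the rising genes lie left of the vertical dotted line, at background at Day 7.

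The largest rise was that of DNASE1L3, a secreted enzyme that cuts DNA, with log2 intensities of 2.71, 2.85 and 2.40 in the Day 7 pools and 12.47, 12.52 and 11.86 in the Day 13 pools. All Day 7 values were at background, and the gene was at least 475-fold higher (adjusted p = 2.66e-06) at Day 13, the fold being a lower bound against background. GJA1, the gap junction connexin of many epithelia, read 3.15, 2.89 and 3.71 at Day 7 and 12.84, 11.52 and 12.45 at Day 13, so that the nearest pools of the 2 days were far apart. It rose by 9.02 ± 0.38 (adjusted p = 1.2e-05), given here and below as the log2 difference ± its standard error. Day 7 pools 1 and 2 were at background, so the size of this rise is not exact. SLC13A4, a sodium-coupled sulfate transporter, read 5.57, 4.48 and 4.32 at Day 7 and 11.46, 11.97 and 12.35 at Day 13 and rose by 7.14 ± 0.59 (adjusted p = 0.000409). PDZK1, a scaffold that holds transporters at the apical membrane, was at 2.34, 3.86 and 2.53 at Day 7 and 8.93, 9.26 and 9.15 at Day 13 and rose by 6.21 ± 0.42 (adjusted p = 0.000153). For each of these genes the 3 Day 13 pools lay within a narrow band compared with the step from Day 7.

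Enzymes formed another share of the large rises. ME1, the cytosolic malic enzyme that supplies NADPH, read 3.09, 2.42 and 2.94 at Day 7 and 9.57, 9.06 and 8.63 at Day 13 and was at least 51.7-fold higher (adjusted p = 0.000104). The iron reductase gene CYBRD1 was at 2.71, 2.25 and 2.25 at Day 7 and 9.19, 8.31 and 7.47 at Day 13 and was at least 30.5-fold higher (adjusted p = 0.000409), and the carbonic anhydrase gene CA2 was at least 18.2-fold higher (adjusted p = 9.18e-05) from values of 2.23, 2.72 and 2.23 at Day 7 and 6.83, 7.66 and 8.26 at Day 13. Both genes were at background in every Day 7 pool. GPD2, the mitochondrial glycerol phosphate dehydrogenase, rose by 5.83 ± 0.91 (adjusted p = 0.0106) although its Day 7 pools were spread from 2.23 to 4.79. UCHL1, a ubiquitin hydrolase, rose by 5.60 ± 0.84 (adjusted p = 0.00875), and TSPAN2, a tetraspanin, rose by 5.42 ± 0.82 (adjusted p = 0.00887). APOBEC3Z2, a cytidine deaminase that restricts retroviruses, was at least 22.2-fold higher (adjusted p = 0.0169). APOBEC3Z2 lost the call without Day 7 pool 1, 2 or 3 (adjusted p 0.0514 to 0.0549).

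ARHGDIB and the BEX adaptor genes also belonged to the 30 largest rises. ARHGDIB read 2.42, 2.42 and 2.40 at Day 7 and 7.31, 9.51 and 8.49 at Day 13 and was at least 33.02-fold higher (adjusted p = 0.000326). BEX4 read 3.26, 3.59 and 3.70 at Day 7 and 8.999, 10.33 and 9.10 at Day 13 and rose by 5.96 ± 0.68 (adjusted p = 0.00235). BEX3 read 2.91, 5.24 and 5.90 at Day 7 and 10.21, 10.96 and 10.67 at Day 13, so its Day 7 pools differed among themselves by more than its Day 13 pools, and it rose by 5.93 ± 0.81 (adjusted p = 0.00545). The other large rises are described with their gene groups, in which at most 8 called members are named.

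Among the falls, EFHD1, a calcium-binding protein of mitochondria, had the largest, with 9.97, 10.31 and 10.18 in the Day 7 pools and 3.71, 3.20 and 3.66 in the Day 13 pools. It fell by 6.63 ± 0.21 (adjusted p = 1.61e-06), and the spread within each day was below 1 unit. LGALS4, a galectin of epithelia, read 11.79, 11.74 and 11.86 at Day 7 and 4.43, 6.62 and 5.08 at Day 13 and fell by 6.42 ± 0.67 (adjusted p = 0.00147), with Day 13 pool 2 the highest of the Day 13 pools. AIF1L, an actin-binding protein, fell by 5.78 ± 0.30 (adjusted p = 4.25e-05), and CHP2, a calcineurin-like calcium sensor, was at least 14.1-fold lower (adjusted p = 5.13e-05) at Day 13. ENPEP, the aminopeptidase that acts on angiotensin, was bright at Day 7 and uneven at Day 13, with 12.58, 13.46 and 12.89 at Day 7 and 6.10, 7.98 and 8.89 at Day 13, and it fell by 5.33 ± 0.87 (adjusted p = 0.0126).

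Several falling genes encode enzymes. XDH, the xanthine dehydrogenase of purine breakdown, read 5.76, 9.64 and 9.12 at Day 7 and 3.29, 2.24 and 2.24 at Day 13 and was at least 27.5-fold lower (adjusted p = 0.0107), while Day 7 pool 1 lay well below the other Day 7 pools. GNMT, which uses up methyl groups from S-adenosylmethionine, fell by 4.93 ± 0.68 (adjusted p = 0.00566). The carotenoid oxygenase gene BCO2 fell by 3.96 ± 0.54 (adjusted p = 0.00532), the acid sphingomyelinase gene SMPD1 fell by 3.84 ± 0.34 (adjusted p = 0.000583), the hyaluronidase gene HYAL1 fell by 3.88 ± 0.43 (adjusted p = 0.00211) and the short-chain dehydrogenase gene DHRS7 fell by 3.79 ± 0.41 (adjusted p = 0.00183). STEAP3, a ferrireductase of endosomes, fell by 4.22 ± 0.52 (adjusted p = 0.00332) with 11.76, 11.49 and 11.51 at Day 7 and 7.24, 7.93 and 6.92 at Day 13. The remaining large falls were those of KCTD1 (-5.02 ± 0.47), TTC9C (-4.17 ± 0.33), ZNF705A (-4.13 ± 0.42), the autophagy gene ATG14 (-4.20 ± 0.70), the chloride channel gene PACC1 (-3.92 ± 0.74) and PNMA2 (-4.18 ± 0.78), as log2 differences ± SE. ATG14 no longer passed without Day 7 pool 2 (adjusted p = 0.0506). PACC1 missed the threshold once Day 7 pool 1, 2 or 3 or Day 13 pool 3 was left out (adjusted p 0.0546 to 0.0814). PNMA2 lost the call without Day 7 pool 2 or 3 or Day 13 pool 2 or 3 (adjusted p 0.0643 to 0.0732).

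**Figure D2:**
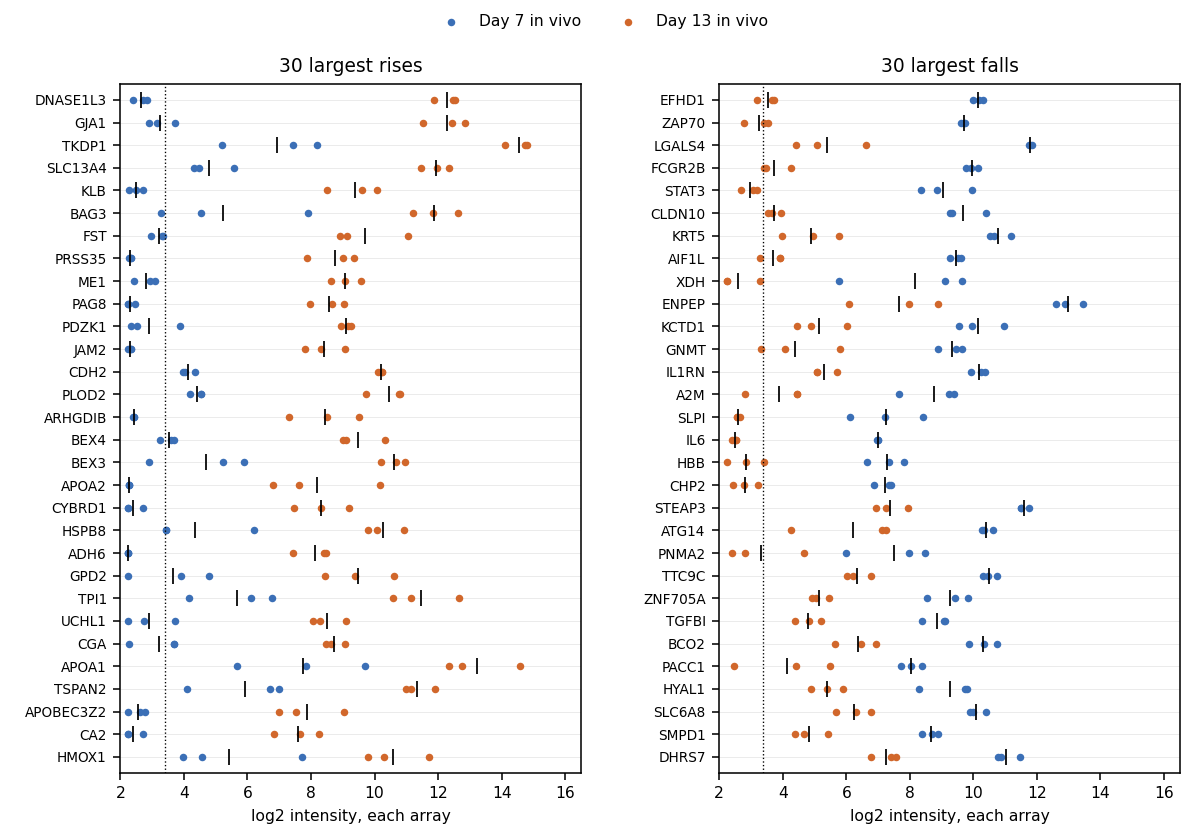
Log2 intensity on each in vivo array for the 30 largest rises (left) and the 30 largest falls (right) among called genes, ordered by size. Blue points are the 3 Day 7 pools, orange points the 3 Day 13 pools, black ticks the group means and the dotted line the background of 3.39. The points of the 2 days do not overlap for any of these genes, which the choice of genes required.

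Among trophoblast regulators, 3 of the 27 measured rose and 0 fell (11.1%, beside 5.49% of all genes), with a median difference of 0.09. Ribosomal centring gave 3 higher, 2 lower and a median of -0.40. ASCL2, an imprinted helix-loop-helix factor of the trophoblast, read 5.56, 5.36 and 5.36 at Day 7 and 9.15, 9.82 and 8.82 at Day 13 and rose by 3.84 ± 0.25 (adjusted p = 0.00011). ETS2, an activator of the interferon tau promoter, rose by 3.83 ± 0.74 (adjusted p = 0.0257) with Day 13 pool 2 the highest pool, and ID2, an inhibitor of helix-loop-helix factors, rose by 2.75 ± 0.61 (adjusted p = 0.0464). ELF5, a trophoblast stem cell factor, read 2.57, 2.55 and 2.38 at Day 7 and 3.06, 4.32 and 4.90 at Day 13 and did not pass (1.59 ± 0.47, adjusted p = 0.135). TFAP2A (-0.11 ± 0.77, adjusted p = 1) and TEAD4 (-0.03 ± 0.45, adjusted p = 1) overlapped between the days, and HAND1 and PPARG were at background on all 6 arrays. Trophoblast regulators called numbered 1 without Day 7 pool 1 or 2. ETS2 no longer passed without Day 7 pool 1 or 2 or Day 13 pool 1 or 2 (adjusted p 0.054 to 0.0736). ID2 missed the threshold once Day 7 pool 1 or 2 or Day 13 pool 1 or 3 was left out (adjusted p 0.129 to 0.148).

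The secreted products of the trophoblast had 5 rises and 0 falls among 31 measured genes (16.1%, beside 5.49% of all genes), of which 10 exceeded background on at least 1 array, and the same counts with ribosomal centring. The Kunitz domain protein gene TKDP1 read 7.42, 5.20 and 8.18 at Day 7 and 14.81, 14.11 and 14.72 at Day 13 and rose by 7.61 ± 1.02 (adjusted p = 0.00508), every Day 13 pool being far above every Day 7 pool. TKDP4 was at least 10.96-fold higher (adjusted p = 0.00371) with 2.26, 2.23 and 2.23 at Day 7 and 6.09, 7.11 and 7.33 at Day 13. The glycoprotein gene PAG8 was at least 36.01-fold higher (adjusted p = 0.000158) with 2.25, 2.45 and 2.24 at Day 7 and 7.96, 9.05 and 8.67 at Day 13. SSLP1, a secreted seminal-vesicle-like protein of the trophoblast, rose by 3.17 ± 0.50 (adjusted p = 0.0106). CGA, the alpha subunit shared by pituitary and placental glycoprotein hormones, rose by 5.50 ± 0.61 (adjusted p = 0.00201) with 3.70, 3.70 and 2.26 at Day 7 and 9.06, 8.62 and 8.47 at Day 13.

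Other products of the trophoblast took other courses. The interferon tau gene IFNT2 read 9.59, 9.24 and 11.40 at Day 7 and 8.41, 8.99 and 9.98 at Day 13, so the groups overlapped, and it differed by -0.95 ± 0.84 (adjusted p = 0.669). PAG2 read 7.74, 8.46 and 8.42 at Day 7 and 7.51, 7.01 and 4.34 at Day 13, each Day 13 pool below each Day 7 pool, but the difference did not pass (-1.92 ± 0.82, adjusted p = 0.339). PAG11 read 3.39, 2.54 and 2.54 at Day 7 and 7.01, 7.98 and 3.39 at Day 13. It was near or below background in the Day 7 pools and in Day 13 pool 3 and bright in the other Day 13 pools, and it did not pass (3.30 ± 1.17, adjusted p = 0.223). Members of these families are close in sequence, and the probe sets may share signal between them.

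Keratins, the filament proteins of epithelia, changed in both directions. KRT19 read 8.30, 7.51 and 10.08 at Day 7 and 12.84, 13.82 and 12.89 at Day 13 and rose by 4.56 ± 0.69 (adjusted p = 0.00877), while KRT5, a keratin of basal epithelial cells, read 10.65, 10.51 and 11.18 at Day 7 and 4.93, 5.78 and 3.97 at Day 13 and fell by 5.88 ± 0.44 (adjusted p = 0.000236). These were the 1 rise and the 1 fall among 17 intermediate filament genes (11.8%, beside 5.49% of all genes, median 0.23), and ribosomal centring gave 1 higher, 1 lower and a median of -0.27. KRT18 (0.16 ± 0.30, adjusted p = 1) and KRT8 (0.54 ± 0.91, adjusted p = 0.999) were bright on both days and overlapped.

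Of the hypoblast and yolk sac genes, 5 of 32 rose and 1 fell (18.8%, beside 5.49% of all genes, median 0), or 5 higher, 1 lower and a median of -0.49 with ribosomal centring. The rising genes were those of lipoprotein export and a WNT agonist. APOA1 read 7.85, 5.68 and 9.71 at Day 7 and 12.34, 14.56 and 12.74 at Day 13 and rose by 5.47 ± 1.03 (adjusted p = 0.0232). APOA2 read 2.29, 2.27 and 2.28 at Day 7 and 7.63, 10.16 and 6.82 at Day 13 and was at least 28.1-fold higher (adjusted p = 0.00806), and APOE read 6.496, 6.16 and 6.58 at Day 7 and 10.12, 11.71 and 9.55 at Day 13 and rose by 4.05 ± 0.60 (adjusted p = 0.00806). In all 3 the highest pool was Day 13 pool 2, the array that stood apart in GAPDH and actin, and APOA2 and APOE passed without it. None of the 3 passed with the GAPDH 3′ minus 5′ covariate (adjusted p 0.0869 to 0.213). The same held for the 6 in vivo arrays fitted alone (adjusted p 0.108 to 0.242). MTTP, which loads lipid onto nascent lipoproteins, rose by 2.96 ± 0.53 (adjusted p = 0.0193). The WNT agonist gene RSPO3 rose by 3.05 ± 0.65 (adjusted p = 0.0398), with 3 even Day 13 pools (7.43, 6.76 and 6.41 at Day 7 and 9.97, 9.83 and 9.94 at Day 13). Hypoblast genes had counts of 2 without Day 7 pool 1 or Day 13 pool 3 and 3 without Day 7 pool 3 or Day 13 pool 2. APOA1 lost the call without Day 7 pool 1 or Day 13 pool 2 or 3 (adjusted p 0.0531 to 0.0699). MTTP no longer passed without Day 7 pool 1, 2 or 3 or Day 13 pool 3 (adjusted p 0.0531 to 0.0635). RSPO3 missed the threshold once any 1 of the 6 arrays was left out (adjusted p 0.0689 to 0.116).

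The transcription factor and receptor genes that define the hypoblast were not among the risers. GATA6 was bright on both days, with 13.59, 14.10 and 13.10 at Day 7 and 12.59, 11.30 and 12.77 at Day 13. Every Day 13 pool was below every Day 7 pool, yet the difference did not pass (-1.37 ± 0.42, adjusted p = 0.152). The receptor gene PDGFRA read 11.89, 11.25 and 11 at Day 7 and 10.72, 10.06 and 11.15 at Day 13 and differed by -0.74 ± 0.53 (adjusted p = 0.568). DAB2, an endocytic adaptor of extraembryonic endoderm, fell by 0.96 ± 0.19 (adjusted p = 0.0287). GATA4 exceeded background in 1 Day 13 pool only (2.26, 2.26 and 2.26 at Day 7 and 3.40, 2.54 and 2.26 at Day 13). DAB2 lost the call without Day 7 pool 1 or 3 or Day 13 pool 2 or 3 (adjusted p 0.0587 to 0.0997).

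Basement membrane and collagen genes had 6 rises and 1 fall among 38 measured (18.4%, median 0.26), and ribosomal centring gave 6 higher, 2 lower and a median of -0.23. The core of the membrane was represented by the laminin genes LAMB1, with 8.42, 9.10 and 9.32 at Day 7 and 11.42, 12.31 and 11.66 at Day 13 and a rise of 2.85 ± 0.35 (adjusted p = 0.00311), and LAMC1, which rose by 2.70 ± 0.54 (adjusted p = 0.0302), and by the nidogen genes NID2, which rose by 2.19 ± 0.31 (adjusted p = 0.00693), and NID1, which rose by 2.69 ± 0.54 (adjusted p = 0.0314). FBLN1, a fibulin, was at least 10.4-fold higher (adjusted p = 0.0014) from background, and COL15A1, a collagen of basement membranes, was at least 5.35-fold higher (adjusted p = 0.021), with Day 13 pool 2 at 3.91 and the other Day 13 pools at 6.85 and 6.67. COL4A1, the main collagen chain of basement membranes, was higher in each Day 13 pool than in each Day 7 pool but did not pass (1.61 ± 0.48, adjusted p = 0.139). TGFBI, a matrix protein that binds integrins, was the fall, with 9.11, 8.39 and 9.06 at Day 7 and 4.37, 5.20 and 4.84 at Day 13, and it fell by 4.05 ± 0.33 (adjusted p = 0.000392). The list of stroma and vessel genes also held FBLN1 and MMP2 among its risers (9.52% called, beside 5.49% of all genes). Of its 7 defining markers, COL3A1, DCN, LUM and VWF were at background throughout. COL1A1, COL1A2 and PECAM1 each exceeded background in at least 1 Day 13 pool. Of the 7 markers, 2 exceeded it in all 3 Day 7 pools and 1 in all 3 Day 13 pools. The summed defining markers were 7.74 to 8.43 at Day 7 and 5.62 to 7.26 at Day 13. Matrix genes called numbered 4 without Day 7 pool 1 or Day 13 pool 3. Stroma and vessel genes had a count of 1 without Day 7 pool 3. MMP2 no longer passed without Day 7 pool 1, 2 or 3 (adjusted p 0.0845 to 0.114). LAMC1 and COL15A1 missed the threshold once Day 7 pool 1, 2 or 3 or Day 13 pool 1 or 3 was left out (adjusted p 0.0563 to 0.0981). NID1 lost the call without Day 7 pool 1 or 3 or Day 13 pool 1, 2 or 3 (adjusted p 0.0643 to 0.109).

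Pluripotency and epiblast genes had 2 rises and 1 fall among 15 measured (20%, beside 5.49% of all genes, median -0.21), or 2 higher, 3 lower and a median of -0.70 with ribosomal centring. CRIPTO, the co-receptor of NODAL, read 6.31, 6.46 and 6.64 at Day 7 and 11.14, 11.65 and 11.16 at Day 13 and rose by 4.85 ± 0.27 (adjusted p = 6.57e-05). ZIC2, a zinc finger factor of the primed epiblast and neural plate, was at least 11.1-fold higher (adjusted p = 0.00284) from background, with 3.11, 2.54 and 2.54 at Day 7 and 6.98, 6.201 and 7.40 at Day 13. STAT3, which carries signals of the leukaemia inhibitory factor family, read 8.85, 8.34 and 9.95 at Day 7 and 3.06, 3.19 and 2.67 at Day 13 and was at least 50.5-fold lower (adjusted p = 0.000102), but its other probe set above background was not called. POU5F1, the core factor of pluripotent cells, read 9.01, 8.76 and 10.20 at Day 7 and 6.92, 9.43 and 6.72 at Day 13. Its Day 13 pools 1 and 3 lay below all Day 7 pools and pool 2 lay among them, and it differed by -1.64 ± 0.76 (adjusted p = 0.403). SOX2 exceeded background in 1 pool only, Day 7 pool 1 (4.82, 2.36 and 2.50 at Day 7 and 2.36, 2.36 and 2.36 at Day 13).

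CDH2 and VIM, which cells switch on when they leave an epithelium and which also mark other embryonic tissues, were the 2 risers among 8 genes of gastrulation onset (25%, beside 5.49% of all genes, median 0, with none falling and 2 higher, 1 lower and a median of -0.49 after ribosomal centring). CDH2, the neural cadherin, read 4.36, 4.04 and 3.96 at Day 7 and 10.22, 10.10 and 10.24 at Day 13, with Day 13 pools almost equal, and it rose by 6.07 ± 0.29 (adjusted p = 3.03e-05). VIM read 2.23, 2.23 and 2.23 at Day 7 and 7.19, 7.68 and 3.67 at Day 13, so Day 13 pool 3 was only just above background, and it was at least 6.91-fold higher (adjusted p = 0.0468). The epithelial cadherin gene CDH1 was lower in each Day 13 pool than in each Day 7 pool without passing (-1.39 ± 0.41, adjusted p = 0.138). BMP4 was at background throughout. Gastrulation genes called numbered 1 without Day 7 pool 1 or 3 or Day 13 pool 1 or 2. VIM no longer passed without Day 7 pool 1, 2 or 3 or Day 13 pool 1 or 2 (adjusted p 0.103 to 0.135).

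**Figure D3:**
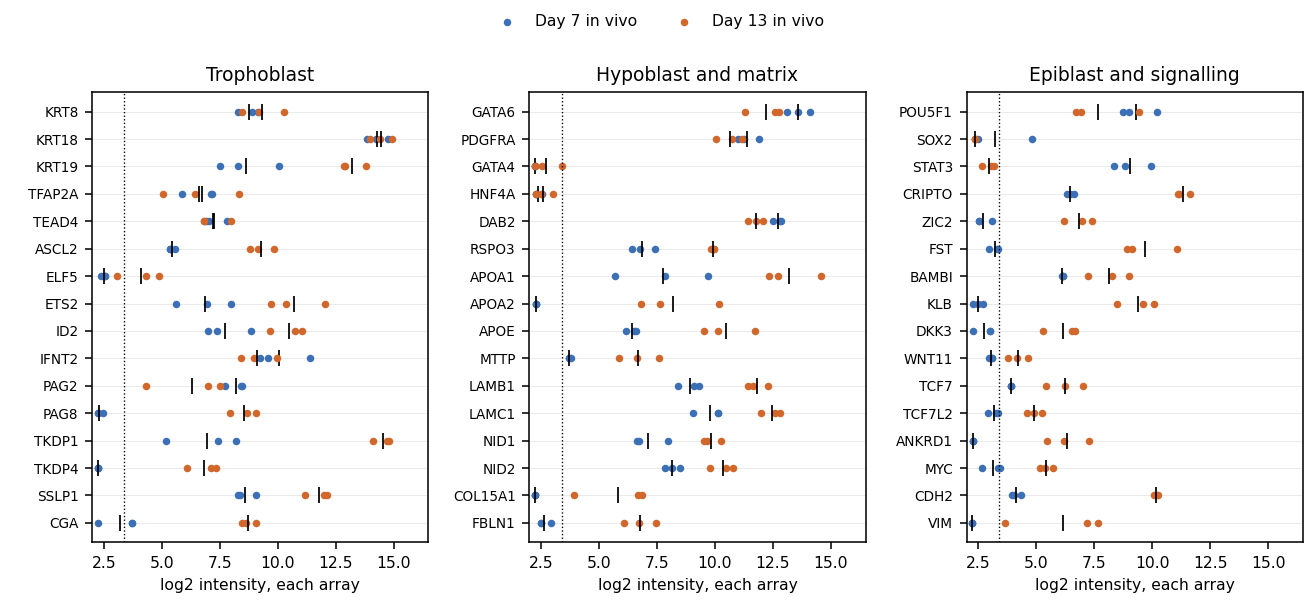
Log2 intensity on each in vivo array for trophoblast genes (left), hypoblast and matrix genes (centre), and epiblast and signalling genes (right). Blue points are the 3 Day 7 pools, orange points the 3 Day 13 pools, black ticks the group means and the dotted line the background of 3.39. TKDP1, APOA1 and CRIPTO separate widely between the days, while KRT18, PDGFRA and POU5F1 overlap.

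Signalling genes were called in small numbers. Of 27 activin, NODAL, BMP and TGF-beta genes, 2 rose and 0 fell (7.41%, beside 5.49% of all genes), and the median was 0 (2 higher, 0 lower and a median of -0.49 with ribosomal centring). FST, which binds and blocks activin, was at least 79.4-fold higher (adjusted p = 0.00023) with 3.32, 3.35 and 2.95 at Day 7 and 8.93, 11.05 and 9.13 at Day 13. BAMBI, a receptor decoy, rose by 2.03 ± 0.37 (adjusted p = 0.0205). INHBA, the activin A subunit, was at background on all 6 arrays. Genes of this list had a count of 1 without Day 7 pool 1 or 3 or Day 13 pool 2. BAMBI missed the threshold once Day 7 pool 1, 2 or 3 or Day 13 pool 2 was left out (adjusted p 0.058 to 0.0669).

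KLB, a co-receptor of the endocrine fibroblast growth factors, was the 1 change among 23 genes of FGF and ERK signalling (4.35%, beside 5.49% of all genes, median 0.03, and 1 higher, 2 lower and a median of -0.46 with ribosomal centring). It read 2.27, 2.70 and 2.49 at Day 7 and 9.62, 8.50 and 10.07 at Day 13 and was at least 64.3-fold higher (adjusted p = 9.77e-05), and 1 of its 2 other probe sets above background was called the same way. The receptor genes FGFR2 (0.89 ± 0.61, adjusted p = 0.568) and FGFR4 (-0.88 ± 0.37, adjusted p = 0.335) did not pass, and FGFR4 was at or near background on most arrays. FGF and ERK genes called numbered 2 without Day 7 pool 3 or Day 13 pool 2.

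WNT genes had 4 rises and 0 falls among 28 measured (14.3%, beside 5.49% of all genes, median 0, and 2 higher, 1 lower and a median of -0.49 with ribosomal centring). A fit to the 6 in vivo arrays alone gave 0 higher and 0 lower. The secreted DKK3 read 2.27, 2.99 and 2.99 at Day 7 and 6.56, 5.28 and 6.67 at Day 13 and was at least 6.87-fold higher (adjusted p = 0.0028). The ligand gene WNT11 was at least 1.77-fold higher (adjusted p = 0.0315), and the nuclear effectors TCF7L2 (at least 2.88-fold, adjusted p = 0.029) and TCF7 (2.34 ± 0.50, adjusted p = 0.0404) were higher too. DKK3 was the member whose call held without any 1 array. WNT genes had counts of 1 without Day 7 pool 1, 2 or 3 or Day 13 pool 2 and 2 without Day 13 pool 1. WNT11 and TCF7 lost their calls without Day 7 pool 1, 2 or 3 or Day 13 pool 1 or 2 (adjusted p 0.057 to 0.115). TCF7L2 no longer passed without Day 7 pool 1, 2 or 3 or Day 13 pool 2 or 3 (adjusted p 0.0696 to 0.0978).

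In the Hippo list, ANKRD1, a target of YAP, was the 1 called gene of 10 (10%, beside 5.49% of all genes, median 0.02, and 1 higher, 0 lower and a median of -0.47 with ribosomal centring). It read 2.29, 2.29 and 2.29 at Day 7 and 7.29, 5.49 and 6.2 at Day 13 and was at least 7.65-fold higher (adjusted p = 0.000621). The other ANKRD1 probe set above background differed by 0.81 and was not called. ADH6, an alcohol dehydrogenase, was likewise the 1 called gene of 19 in retinoid transport and action (5.26%, beside 5.49% of all genes, median 0.02, and 1 higher, 0 lower and a median of -0.47 with ribosomal centring). It read 2.24, 2.24 and 2.24 at Day 7 and 7.44, 8.41 and 8.48 at Day 13 and was at least 26.3-fold higher (adjusted p = 7.56e-06). Hippo genes called numbered 2 without Day 13 pool 1. Retinoid genes had a count of 3 without Day 13 pool 3.

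No gene passed in 5 lists. By limma, 0 of 12 EGF receptor family genes, 0 of 15 IGF system genes, 0 of 8 Notch genes, 0 of 15 oocyte genes and 0 of 13 endometrial epithelium genes were called, beside 5.49% of all genes. Lists of this size can hold 0 called members at that share, so the counts show no lack of change. At an unadjusted p below 0.05 the counts were 0 of 12, 3 of 15, 0 of 8, 3 of 15 and 0 of 13, against 19% of all genes. The IGF and oocyte lists were thus near the share of all genes. IGF2R, the clearance receptor for IGF2, was bright and even, with 10.72, 11.11 and 10.74 at Day 7 and 11.20, 10.43 and 11.27 at Day 13, and IGFBP7 (1.03 ± 0.25, adjusted p = 0.0688) was the IGF gene nearest to passing. IGF genes called numbered 1 without Day 7 pool 1 or Day 13 pool 1. Oocyte genes had a count of 1 without Day 7 pool 1.

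Prostaglandin genes rose in 2 of 18 cases and fell in 0 (11.1%, beside 5.49% of all genes, median 0.14, and 2 higher, 0 lower and a median of -0.35 with ribosomal centring). PTGIS, the prostacyclin synthase, rose by 2.74 ± 0.58 (adjusted p = 0.0404) with 4.002, 3.83 and 3.83 at Day 7 and 6.16, 8.07 and 5.66 at Day 13, and AKR1B1, an aldo-keto reductase that can make prostaglandin F, rose by 3.94 ± 0.86 (adjusted p = 0.0452) with 5.99, 7.36 and 9.08 at Day 7 and 10.78, 12.48 and 10.98 at Day 13. PTGS2, the inducible cyclooxygenase, was bright on both days (9.86, 11.19 and 11.36 at Day 7 and 10.06, 9.91 and 10.62 at Day 13) and differed by -0.61 ± 0.52 (adjusted p = 0.647). PTGES stayed near background (0.14 ± 0.16, adjusted p = 0.812). Prostaglandin genes called numbered 0 without Day 7 pool 1 or 2 or Day 13 pool 1 and 1 without Day 7 pool 3 or Day 13 pool 3. PTGIS missed the threshold once Day 7 pool 1, 2 or 3 or Day 13 pool 1 was left out (adjusted p 0.0668 to 0.114). AKR1B1 lost the call without Day 7 pool 1 or 2 or Day 13 pool 1, 2 or 3 (adjusted p 0.0747 to 0.124).

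Of 24 steroid genes, STAR, which carries cholesterol into mitochondria, rose by 3.32 ± 0.57 (adjusted p = 0.0162) and HSD17B11, a hydroxysteroid dehydrogenase, fell by 1.87 ± 0.40 (adjusted p = 0.0384). These 2 genes are 8.33% of the list, beside 5.49% of all genes. The median was 0.01, and ribosomal centring gave 1 higher, 1 lower and a median of -0.48. STAR is also one of the 2 called members of the cumulus and granulosa list (11.8%, beside 5.49% of all genes), with TNFAIP6, a hyaluronan-binding protein, which rose by 2.29 ± 0.35 (adjusted p = 0.00963). TNFAIP6 is also 1 of the 6 defining markers of cumulus and granulosa cells, and it exceeded background in all 3 Day 13 pools. The other defining markers, CYP19A1, FSHR, AMH, PTX3 and FOXL2, were at background on all 6 arrays. The summed level of the 6 was 4.82 to 5.21 at Day 7 and 5.665 to 6.02 at Day 13. Steroid genes had a count of 1 without Day 7 pool 2 or 3 or Day 13 pool 1 or 3. Cumulus genes called numbered 1 without Day 13 pool 3. STAR no longer passed without Day 13 pool 3 (adjusted p = 0.0531). HSD17B11 missed the threshold once Day 7 pool 2 or 3 or Day 13 pool 1, 2 or 3 was left out (adjusted p 0.0507 to 0.123).

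Cholesterol biosynthesis showed the highest share of called members among the lists, with 7 of 20 genes higher (35%), 0 lower and a median difference of 1.03. Ribosomal centring left 6 higher, 0 lower and a median of 0.54. A fit to the 6 in vivo arrays alone left 0 higher and 0 lower. With the GAPDH 3′ minus 5′ covariate CYP51A1 and MSMO1 passed (adjusted p = 0.0144 and 0.0445). SQLE, HMGCS1, NSDHL, DHCR7 and FDPS did not (adjusted p 0.0694 to 0.329). CYP51A1, the lanosterol demethylase, read 6.54, 8.07 and 7.68 at Day 7 and 11.43, 10.53 and 10.52 at Day 13 and rose by 3.40 ± 0.46 (adjusted p = 0.00505). SQLE, the squalene epoxidase, read 8.75, 8.67 and 7.24 at Day 7 and 11.05, 11.06 and 10.49 at Day 13 and rose by 2.65 ± 0.37 (adjusted p = 0.00611). MSMO1, the sterol methyl oxidase, rose by 1.69 ± 0.24 (adjusted p = 0.00732). The list's first enzyme, HMGCS1, read 11.01, 11.14 and 11.003 at Day 7 and 12.56, 13.20 and 12.49 at Day 13 and rose by 1.70 ± 0.29 (adjusted p = 0.016). FDPS (2.77 ± 0.58), DHCR7 (2.11 ± 0.45) and NSDHL (1.15 ± 0.22), which act between and after these steps, were higher by the log2 differences given. Cholesterol genes had counts of 3 without Day 7 pool 1 and 4 without Day 13 pool 2. HMGCS1 lost the call without Day 7 pool 1 or 3 (adjusted p 0.0501 to 0.0555). FDPS no longer passed without Day 7 pool 1 or 2 or Day 13 pool 1 or 2 (adjusted p 0.0671 to 0.104). NSDHL missed the threshold once Day 7 pool 1 or 3 or Day 13 pool 1 or 2 was left out (adjusted p 0.0623 to 0.0776). DHCR7 lost the call without Day 7 pool 1, 2 or 3 or Day 13 pool 1 or 2 (adjusted p 0.0516 to 0.114).

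Genes of fatty acid and lipid droplet metabolism rose in 7 of 53 cases and fell in 2 (17%, median 0.02), or 6 higher, 5 lower and a median of -0.47 with ribosomal centring. LPL, which frees fatty acids from circulating triglyceride, read 2.23, 2.34 and 2.23 at Day 7 and 7.29, 6.58 and 6.82 at Day 13 and was at least 11.4-fold higher (adjusted p = 0.0028). ELOVL7, an elongase, read 3.79, 2.23 and 2.68 at Day 7 and 8.28, 7.15 and 7.71 at Day 13 and rose by 4.81 ± 0.47 (adjusted p = 0.000987), and AGPAT3, an acyltransferase of phospholipid synthesis, rose by 2.94 ± 0.22 (adjusted p = 0.00023). The other AGPAT3 probe set above background differed by 0.43 and was not called. The carriers FABP7 (at least 4.03-fold, adjusted p = 0.00611) and FABP5 (2.07 ± 0.34, adjusted p = 0.0138) rose, as did the lysosomal lipase gene LIPA, which rose by 2.58 ± 0.38 (adjusted p = 0.00806). DGAT2, which makes triglyceride, fell by 1.95 ± 0.24 (adjusted p = 0.00307). CPT1B was called as lower with all 6 values at background, so no fold is given. FABP5 no longer passed without Day 7 pool 1 (adjusted p = 0.0502).

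Glycolysis, glucose supply and hypoxia genes had 8 rises and 1 fall among 44 (20.5%, median 0.18), and 9 higher, 4 lower and a median of -0.31 with ribosomal centring. A fit to the 6 in vivo arrays alone gave 1 higher and 0 lower. TPI1, the triose phosphate isomerase, read 6.11, 4.17 and 6.77 at Day 7 and 10.59, 12.65 and 11.14 at Day 13. Its Day 13 pool 2 was the highest pool, and it rose by 5.78 ± 0.87 (adjusted p = 0.00885). PFKFB3, which makes the activator of phosphofructokinase, read 7.01, 5.37 and 8.09 at Day 7 and 10.23, 10.65 and 11.37 at Day 13 and rose by 3.93 ± 0.64 (adjusted p = 0.0126), and PFKM, the muscle phosphofructokinase, was at least 2.24-fold higher (adjusted p = 0.0103). The hypoxia-inducible factor genes HIF1A (2.67 ± 0.50, adjusted p = 0.0224) and EPAS1 (2.58 ± 0.41, adjusted p = 0.011) were both higher. PLOD2, a collagen lysyl hydroxylase, read 4.53, 4.53 and 4.196 at Day 7 and 10.78, 9.73 and 10.81 at Day 13 and rose by 6.02 ± 0.39 (adjusted p = 0.000112), and the prolyl hydroxylase gene P4HA2 rose by 3.93 ± 0.76 (adjusted p = 0.0253). BNIP3L, a mitophagy receptor, was the fall, with 10.997, 10.93 and 10.81 at Day 7 and 8.64, 8.39 and 9.33 at Day 13, and it fell by 2.12 ± 0.25 (adjusted p = 0.00245). TKTL1, a transketolase-like gene of the pentose phosphate pathway named for its contrast with in vitro embryos, was at least 5.34-fold higher (adjusted p = 0.000417). GAPDH itself was not called (1.16 ± 0.44, adjusted p = 0.256). HIF1A missed the threshold once Day 7 pool 1 or 3 or Day 13 pool 1 or 3 was left out (adjusted p 0.0676 to 0.0793). P4HA2 lost the call without Day 7 pool 2 or Day 13 pool 1, 2 or 3 (adjusted p 0.0506 to 0.071).

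Genes of the mitochondrial respiratory chain and ATP synthase, which carry out oxidative phosphorylation, were called in few cases. All 74 measured genes exceeded background on at least 1 array, 0 rose and 1 fell (1.35%, against 5.49% of all genes), and the median difference was 0.10. Differences ran from -1.35 to 1.21. COX7A2, a subunit of cytochrome oxidase, was the fall, and it fell by 0.58 ± 0.13 (adjusted p = 0.0499). After ribosomal centring the list had 0 higher, 9 lower and a median of -0.40. Genes of oxidative phosphorylation called numbered 0 without Day 7 pool 1, 2 or 3 or Day 13 pool 1. COX7A2 missed the threshold once any 1 of the 6 arrays was left out (adjusted p 0.0528 to 0.147).

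Nutrient transporter genes had 2 rises and 3 falls among 51 (9.8%, beside 5.49% of all genes, median 0, and 2 higher, 9 lower and a median of -0.49 with ribosomal centring). Beside SLC13A4, the riboflavin transporter gene SLC52A3 was at least 5.399-fold higher (adjusted p = 0.000137). TFRC, the transferrin receptor that takes up iron, read 9.93, 9.82 and 10.19 at Day 7 and 6.31, 6.59 and 7.95 at Day 13 and fell by 3.03 ± 0.46 (adjusted p = 0.00887). The nucleoside transporter gene SLC28A3 was at least 1.23-fold lower (adjusted p = 0.00339), and SLC7A5, a carrier of large neutral amino acids, fell by 2.47 ± 0.55 (adjusted p = 0.0497). The creatine transporter gene SLC6A8, named as one of the 30 largest falls, fell by 3.84 ± 0.50 (adjusted p = 0.00429) with 9.99, 9.89 and 10.39 at Day 7 and 6.31, 6.77 and 5.66 at Day 13. SLC7A5 missed the threshold once Day 7 pool 1, 2 or 3 or Day 13 pool 1 or 3 was left out (adjusted p 0.06 to 0.137).

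Among 39 ion pump, channel and water channel genes, 3 rose and 2 fell (12.8%, beside 5.49% of all genes, median 0, and 3 higher, 4 lower and a median of -0.49 with ribosomal centring). SLC9A3, a sodium-proton exchanger of apical membranes, read 6.03, 6.43 and 5.39 at Day 7 and 9.96, 10.11 and 10.34 at Day 13 and rose by 4.18 ± 0.38 (adjusted p = 0.000621). ATP1B1, the beta subunit of the sodium pump, read 5.73, 5.40 and 5.44 at Day 7 and 7.95, 7.20 and 7.50 at Day 13 and rose by 2.03 ± 0.23 (adjusted p = 0.00244), and CA2 was the third riser. AQP11 fell by 0.99 ± 0.11 (adjusted p = 0.0023). SCNN1G, a subunit of the epithelial sodium channel, was called as lower while all 6 values were at background. AQP3, a glycerol and water channel, was bright with overlapping groups (0.35 ± 0.75, adjusted p = 1).

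Junction genes rose in 4 of 42 cases and fell in 3 (16.7%, median 0), or 3 higher, 7 lower and a median of -0.49 with ribosomal centring. The claudins, which set the tightness of the paracellular seal, changed in both directions. CLDN10 read 9.27, 9.33 and 10.40 at Day 7 and 3.95, 3.54 and 3.67 at Day 13 and fell by 5.95 ± 0.48 (adjusted p = 0.000334), while CLDN1 rose by 2.50 ± 0.45 (adjusted p = 0.0185) and CLDN4 rose by 1.23 ± 0.26 (adjusted p = 0.0355). JAM2, a junctional adhesion molecule, read 2.32, 2.23 and 2.32 at Day 7 and 9.06, 8.32 and 7.81 at Day 13 and was at least 32.2-fold higher (adjusted p = 3.56e-05). Among connexins GJA1 rose, as above, and GJB5 fell by 1.93 ± 0.41 (adjusted p = 0.0407). PRKCZ, the atypical kinase of the polarity complex, fell by 1.36 ± 0.27 (adjusted p = 0.0295). Junction genes had counts of 3 without Day 7 pool 1 and 4 without Day 7 pool 2. CLDN1 lost the call without Day 7 pool 1 or 2 or Day 13 pool 2 (adjusted p 0.0544 to 0.0634). CLDN4 no longer passed without Day 7 pool 1, 2 or 3 or Day 13 pool 3 (adjusted p 0.0605 to 0.111). PRKCZ missed the threshold once Day 7 pool 1 or 3 or Day 13 pool 1 or 3 was left out (adjusted p 0.0718 to 0.0903). GJB5 lost the call without Day 7 pool 1 or 2 or Day 13 pool 1, 2 or 3 (adjusted p 0.0762 to 0.124).

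Of 37 adhesion genes 1 rose and 1 fell, a share of 5.41% beside 5.49% of all genes (median 0.04, and 0 higher, 1 lower and a median of -0.45 with ribosomal centring). The fall was LGALS4. The rise was ITGB5, an integrin subunit that was near the top of the scale on every array (15.11, 15.10 and 15.13 at Day 7 and 15.28, 15.33 and 15.37 at Day 13). Its difference of 0.22 ± 0.05 turned to -0.03 after quantile normalization and to -0.27 with ribosomal centring. Adhesion genes called numbered 1 without Day 7 pool 1 or 3 or Day 13 pool 1 or 2. ITGB5 missed the threshold once any 1 of the 6 arrays was left out (adjusted p 0.0609 to 0.128).

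Actin cytoskeleton genes had 1 rise and 2 falls among 60, a share of 5% beside 5.49% of all genes (median 0.12, and 2 higher, 5 lower and a median of -0.37 with ribosomal centring). ARHGDIB was the riser. The tropomyosin genes TPM4, with 14.49, 14.74 and 14.70 at Day 7 and 13.60, 12.92 and 13.56 at Day 13, and TPM1, with 12.29, 12.33 and 12.80 at Day 7 and 11.64, 11.36 and 11.12 at Day 13, fell by 1.28 ± 0.24 (adjusted p = 0.0239) and 1.10 ± 0.24 (adjusted p = 0.0473). The 3′ minus 5′ difference of actin itself was higher at Day 13, as given above, and its part in these values was not tested. Actin cytoskeleton genes had a count of 1 without Day 7 pool 1 or 2. TPM4 missed the threshold once Day 7 pool 1, 2 or 3 was left out (adjusted p 0.0561 to 0.0802). TPM1 missed the threshold once any 1 of the 6 arrays was left out (adjusted p 0.0599 to 0.136).

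Proteases and their inhibitors had 6 rises and 2 falls among 52 (15.4%, median 0.10, and 6 higher, 2 lower and a median of -0.39 with ribosomal centring). PRSS35, a serine protease homologue, read 2.35, 2.26 and 2.35 at Day 7 and 7.87, 9.36 and 9.01 at Day 13 and was at least 40.98-fold higher (adjusted p = 0.000158). MME, the neutral endopeptidase, rose by 2.66 ± 0.36 (adjusted p = 0.00555), the sheddase gene ADAM9 rose by 2.61 ± 0.45 (adjusted p = 0.0169), and the gelatinase gene MMP2 was at least 1.49-fold higher (adjusted p = 0.0384). The serpins SERPINB1, an inhibitor of elastase, and SERPING1, an inhibitor of complement, also rose: SERPINB1 was at least 5.01-fold higher (adjusted p = 0.00464) and SERPING1 rose by 2.66 ± 0.40 (adjusted p = 0.00901). SLPI, another elastase inhibitor, took the opposite course. It read 7.22, 6.11 and 8.43 at Day 7 and 2.65, 2.564 and 2.564 at Day 13 and was at least 14.6-fold lower (adjusted p = 0.00134). A2M, a broad inhibitor of proteases, fell by 4.86 ± 0.89 (adjusted p = 0.0203). Protease genes called numbered 5 without Day 7 pool 1 or 3. A2M no longer passed without Day 7 pool 1 or 3 or Day 13 pool 3 (adjusted p 0.0623 to 0.0735). ADAM9 missed the threshold once Day 7 pool 1 or 3 or Day 13 pool 1 or 3 was left out (adjusted p 0.0514 to 0.0621).

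Endocytosis and lysosome genes had 1 rise and 2 falls among 54, a share of 5.56% beside 5.49% of all genes (median 0, and 1 higher, 7 lower and a median of -0.49 with ribosomal centring). The acid ceramidase gene ASAH1 rose by 3.21 ± 0.66 (adjusted p = 0.0343). PSAP, the precursor of the saposins, was bright and even within each day (11.85, 11.77 and 11.83 at Day 7 and 10.65, 10.54 and 10.56 at Day 13) and fell by 1.23 ± 0.16 (adjusted p = 0.00372). LRPAP1, a chaperone of lipoprotein receptors, fell by 0.66 ± 0.12 (adjusted p = 0.0231). Endocytic genes had a count of 1 without Day 7 pool 1 or 3 or Day 13 pool 3. LRPAP1 lost the call without Day 7 pool 1 or 3 or Day 13 pool 1 or 3 (adjusted p 0.058 to 0.0693). ASAH1 no longer passed without Day 7 pool 1, 2 or 3 or Day 13 pool 2 or 3 (adjusted p 0.0835 to 0.103).

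Protein folding genes rose in 9 of 54 cases and fell in 0 (16.7%), with a median difference of 0.88, and ribosomal centring gave 12 higher, 0 lower and a median of 0.39. A fit to the 6 in vivo arrays alone gave 1 higher and 0 lower. In the cytosol BAG3, a co-chaperone of selective autophagy, read 4.53, 3.29 and 7.90 at Day 7 and 11.83, 12.61 and 11.20 at Day 13, its Day 7 pools spread over more than 4 units, and it rose by 6.64 ± 1.08 (adjusted p = 0.0128). Its partner HSPB8, a small heat shock protein, read 3.43, 3.43 and 6.19 at Day 7 and 10.92, 10.09 and 9.78 at Day 13 and rose by 5.91 ± 0.83 (adjusted p = 0.00652). HSPH1, a nucleotide exchange factor for heat shock chaperones, rose by 2.76 ± 0.38 (adjusted p = 0.00555). In both BAG3 and HSPB8 the highest Day 7 pool was pool 3.

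In the endoplasmic reticulum HSPA5, the main chaperone there, read 13.43, 13.96 and 14.06 at Day 7 and 15.53, 15.03 and 15.36 at Day 13 and rose by 1.49 ± 0.18 (adjusted p = 0.00269). HERPUD1, of the degradation pathway, rose by 2.90 ± 0.35 (adjusted p = 0.00306), the disulfide isomerase gene PDIA4 rose by 3.94 ± 0.62 (adjusted p = 0.0107), and the secreted stress proteins CRELD2 and MANF were higher by 2.79 ± 0.28 and 1.90 ± 0.29 (adjusted p = 0.00132 and 0.00913). The 9 risers of the list include 1 member beyond these 8, which the naming rule leaves out. With the GAPDH 3′ minus 5′ covariate BAG3, HSPB8, PDIA4 and MANF did not pass (adjusted p 0.0517 to 0.13). HSPH1, HSPA5, HERPUD1 and CRELD2 did (adjusted p 0.0141 to 0.0435). In the list for amino acid starvation and tRNA charging 1 of 22 genes rose and 0 fell (4.55%, beside 5.49% of all genes, median 0.49, and 2 higher, 1 lower and a median of 0 with ribosomal centring). That gene, ALDH18A1, of proline synthesis, rose by 3.14 ± 0.30 (adjusted p = 0.000944). Starvation genes called numbered 2 without Day 7 pool 3.

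Antioxidant and detoxification genes had 6 rises and 1 fall among 44 (15.9%, median 0.30, and 5 higher, 2 lower and a median of -0.19 with ribosomal centring). A fit to the 6 in vivo arrays alone gave 0 higher and 0 lower. SOD1, the cytosolic superoxide dismutase, read 8.46, 9.25 and 9.55 at Day 7 and 11.47, 12.44 and 11.72 at Day 13 and rose by 2.79 ± 0.40 (adjusted p = 0.00684). TXN, thioredoxin, read 13.09, 13.11 and 13.53 at Day 7 and 14.25, 14.64 and 14.16 at Day 13 and rose by 1.11 ± 0.15 (adjusted p = 0.00543). HMOX1, heme oxygenase, read 4.56, 3.96 and 7.71 at Day 7 and 9.78, 11.72 and 10.28 at Day 13 and rose by 5.18 ± 0.91 (adjusted p = 0.0174), with Day 7 pool 3 nearest to the Day 13 pools. The glutathione enzymes GPX2 (2.45 ± 0.43, adjusted p = 0.0173), MGST2 (2.40 ± 0.38, adjusted p = 0.011) and GSTM3 (at least 3.12-fold, adjusted p = 0.00228) were higher. ALDH7A1, an aldehyde dehydrogenase of lysine breakdown, fell by 2.30 ± 0.36 (adjusted p = 0.0107). Its 2 other probe sets above background were not called, and 1 of them differed by 0.085. GPX2 missed the threshold once Day 7 pool 2 was left out (adjusted p = 0.0619). HMOX1 lost the call without Day 7 pool 1 or 2 (adjusted p 0.0508 to 0.0635). With the GAPDH 3′ minus 5′ covariate HMOX1, GPX2, MGST2, TXN and SOD1 did not pass (adjusted p 0.0578 to 0.175). GSTM3 and ALDH7A1 did (adjusted p = 0.0284 and 0.0312).

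All called genes of the immune list were lower. Of 64 complement, cytokine and immune receptor genes, 0 rose and 6 fell (9.38%, beside 5.49% of all genes, median 0, and 1 higher, 7 lower and a median of -0.49 with ribosomal centring). ZAP70, a kinase of the T cell receptor, read 9.74, 9.61 and 9.72 at Day 7 and 3.52, 3.42 and 2.79 at Day 13 and fell by 6.45 ± 0.18 (adjusted p = 1.06e-06). FCGR2B, the inhibitory receptor for antibody, read 9.94, 10.15 and 9.76 at Day 7 and 4.27, 3.41 and 3.48 at Day 13 and fell by 6.23 ± 0.40 (adjusted p = 0.00011). IL1RN, the antagonist of an interleukin receptor, read 10.36, 10.25 and 9.91 at Day 7 and 5.08, 5.72 and 5.08 at Day 13 and fell by 4.88 ± 0.19 (adjusted p = 5.68e-06). IL6 read 7.00, 7.00 and 6.98 at Day 7 and 2.54, 2.54 and 2.39 at Day 13, nearly equal within each day, and was at least 12.1-fold lower (adjusted p = 1.14e-08). CD48, a surface adhesion receptor of the immunoglobulin family, was among the bright genes at Day 7 and fell by 3.12 ± 0.28 (adjusted p = 0.000647). LCK, another kinase of T cell signalling, fell by 2.75 ± 0.49 (adjusted p = 0.0184). LCK no longer passed without Day 7 pool 1, 2 or 3 or Day 13 pool 2 or 3 (adjusted p 0.0532 to 0.0603).

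The leukocyte markers PTPRC, CD3D, CD14 and TYROBP were at background on all 6 arrays, beside these falls. Of the 27 genes on the blood and leukocyte list 6 exceeded background on at least 1 in vivo array, and HBB, the beta globin gene, was the 1 called (3.7%, beside 5.49% of all genes). It read 7.35, 6.66 and 7.80 at Day 7 and 3.42, 2.86 and 2.23 at Day 13 and fell by 4.43 ± 0.83 (adjusted p = 0.0224), while HBA was at background. The summed blood markers were 7.1 to 7.99 at Day 7 and 5.12 to 5.48 at Day 13, and their part in the immune falls was not tested beyond these levels. Blood genes had a count of 0 without Day 7 pool 1 or 3 or Day 13 pool 2 or 3. HBB missed the threshold once Day 7 pool 1 or 3 or Day 13 pool 2 or 3 was left out (adjusted p 0.0573 to 0.0728).

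The list of interferon response and antigen presentation had 1 rise and 1 fall among 44, a share of 4.55% beside 5.49% of all genes (median 0, and 1 higher, 2 lower and a median of -0.49 with ribosomal centring). IFI30, a thiol reductase of antigen processing, rose by 4.08 ± 0.83 (adjusted p = 0.0331) with 5.36, 6.02 and 8.48 at Day 7 and 9.85, 11.72 and 10.53 at Day 13, and SOCS2, a suppressor of cytokine signalling, fell by 2.15 ± 0.46 (adjusted p = 0.0396). In the annexin and S100 list 2 of 24 rose (8.33%, beside 5.49% of all genes, median 0.32, and 2 higher, 1 lower and a median of -0.17 with ribosomal centring). ANXA13, an annexin of epithelial apical transport, was at least 11.98-fold higher (adjusted p = 0.000107) with 2.23, 2.23 and 2.23 at Day 7 and 6.96, 7.58 and 6.38 at Day 13, and ANXA4 rose by 2.02 ± 0.40 (adjusted p = 0.0291). Interferon response genes called numbered 0 without Day 7 pool 1 or 2 and 1 without Day 7 pool 3 or Day 13 pool 2. Annexin and S100 genes had a count of 1 without Day 7 pool 1 or 2. SOCS2 lost the call without Day 7 pool 1, 2 or 3 or Day 13 pool 1 (adjusted p 0.0509 to 0.132). IFI30 no longer passed without Day 7 pool 1 or 2 or Day 13 pool 2 or 3 (adjusted p 0.0811 to 0.11). ANXA4 missed the threshold once Day 7 pool 1, 2 or 3 or Day 13 pool 1 or 3 was left out (adjusted p 0.0738 to 0.0925).

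Chromatin genes had 1 rise and 4 falls among 50 (10%, beside 5.49% of all genes, median -0.05), or 0 higher, 9 lower and a median of -0.54 with ribosomal centring. HDAC1, a histone deacetylase, read 11.48, 11.38 and 11.66 at Day 7 and 9.50, 9.62 and 9.69 at Day 13 and fell by 1.91 ± 0.21 (adjusted p = 0.00183). The acetyltransferase genes KAT7 and KAT2B fell as well: KAT7 fell by 1.88 ± 0.20 (adjusted p = 0.00183), and KAT2B fell by 2.67 ± 0.40 (adjusted p = 0.00889). HMGN3, a nucleosome-binding protein, fell by 1.17 ± 0.24 (adjusted p = 0.0363). UHRF1, which recruits the maintenance DNA methyltransferase, rose by 1.78 ± 0.35 (adjusted p = 0.0268). Chromatin genes called numbered 3 without Day 13 pool 3. UHRF1 lost the call without Day 7 pool 2 or 3 or Day 13 pool 3 (adjusted p 0.0749 to 0.0809). HMGN3 no longer passed without Day 7 pool 1 or 2 or Day 13 pool 2 or 3 (adjusted p 0.0768 to 0.122).

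Cell cycle and DNA replication genes were called at a rate near that of all genes, 2 higher and 1 lower of 68 (4.41%, median -0.01, and 3 higher, 4 lower and a median of -0.50 with ribosomal centring). MYC, a growth-promoting transcription factor, read 3.44, 2.65 and 3.34 at Day 7 and 5.18, 5.37 and 5.73 at Day 13 and rose by 2.28 ± 0.28 (adjusted p = 0.00295). The kinase gene PLK2 rose by 2.13 ± 0.39 (adjusted p = 0.0217), and the phosphatase gene CDC25C fell by 1.30 ± 0.25 (adjusted p = 0.0247). Of 28 apoptosis genes 1 fell, the pro-apoptotic BAD, which fell by 1.71 ± 0.34 (adjusted p = 0.029), and 0 rose (3.57%, beside 5.49% of all genes, median 0, and 1 higher, 1 lower and a median of -0.49 with ribosomal centring). Cell cycle genes had a count of 1 without Day 7 pool 1 or 2 or Day 13 pool 1. Apoptosis genes called numbered 0 without Day 7 pool 1, 2 or 3 or Day 13 pool 1 or 3. PLK2 missed the threshold once Day 7 pool 1 or 2 or Day 13 pool 1 or 2 was left out (adjusted p 0.0626 to 0.0777). BAD lost the call without Day 7 pool 1, 2 or 3 or Day 13 pool 1 or 3 (adjusted p 0.0506 to 0.101). CDC25C no longer passed without Day 7 pool 1 or 2 or Day 13 pool 1, 2 or 3 (adjusted p 0.0509 to 0.0865).

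Imprinted genes, which are read from 1 parental copy, had 4 rises and 1 fall among 28 (17.9%, median 0, and 4 higher, 1 lower and a median of -0.49 with ribosomal centring). Beside ASCL2, the zinc finger gene PEG3 rose by 2.85 ± 0.53 (adjusted p = 0.0223) with 3.57, 4.73 and 4.81 at Day 7 and 6.79, 7.78 and 7.11 at Day 13, and NNAT, a membrane proteolipid, was at least 2.15-fold higher (adjusted p = 0.0224). DLK1 was called as higher although its 6 values, from 2.29 to 2.73, were at background. NDN, a growth-suppressing MAGE family gene, read 11.88, 11.85 and 12.09 at Day 7 and 8.18, 8.92 and 9.21 at Day 13 and fell by 3.17 ± 0.59 (adjusted p = 0.0227). Imprinted genes had counts of 2 without Day 7 pool 1 or 2 or Day 13 pool 2 and 3 without Day 7 pool 3 or Day 13 pool 1. PEG3 missed the threshold once Day 7 pool 1 or 2 or Day 13 pool 2 or 3 was left out (adjusted p 0.0508 to 0.0681). NNAT and NDN lost their calls without Day 7 pool 1, 2 or 3 or Day 13 pool 1 or 2 (adjusted p 0.0517 to 0.0722).

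**Figure D4:**
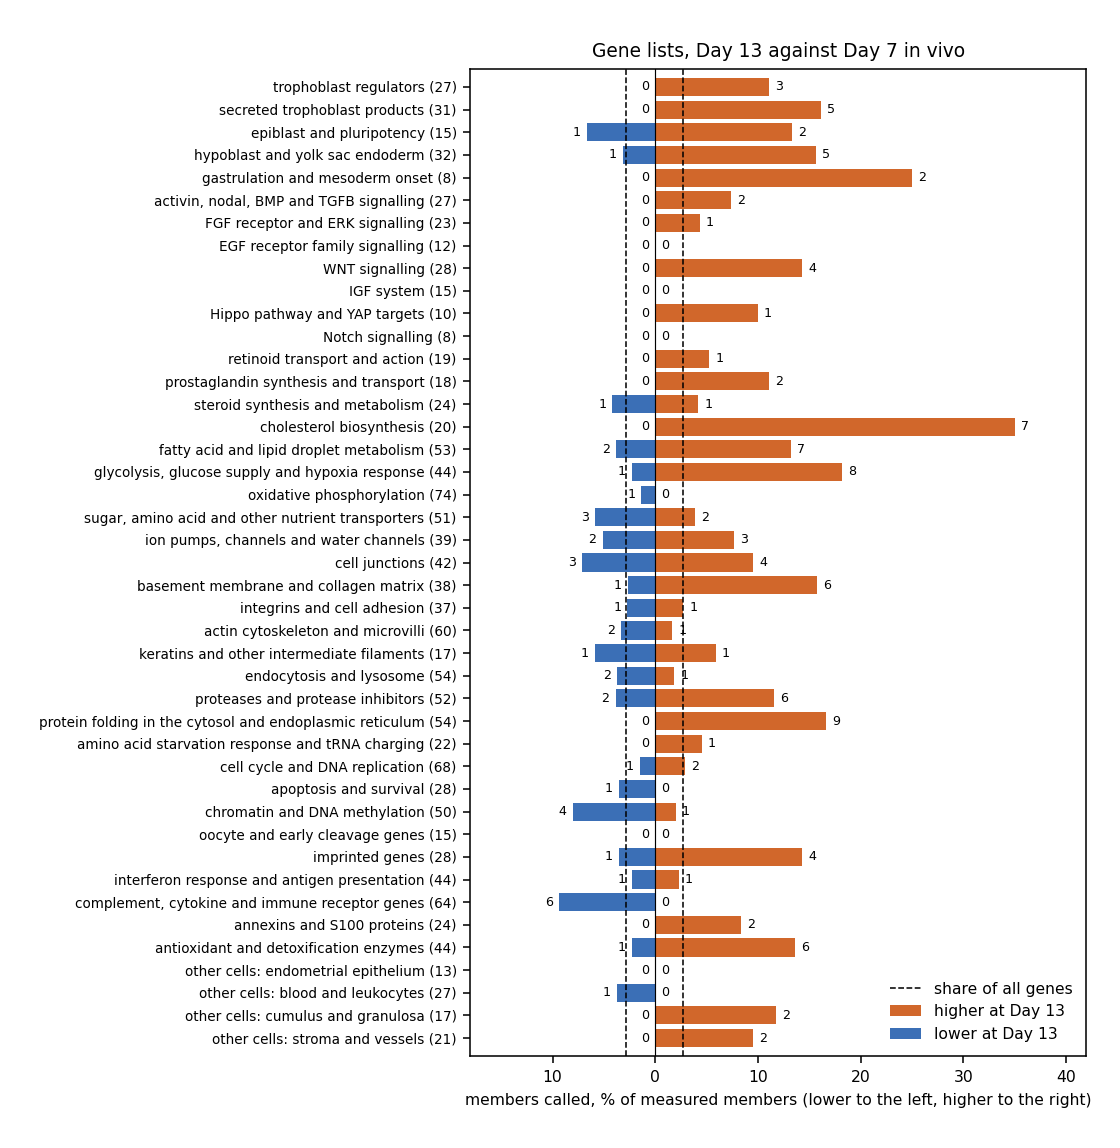
Share of measured members called in each of 43 gene lists, with lower members drawn to the left and higher members to the right of 0 and the counts at the bar ends. Numbers in brackets are measured members, and the dashed lines mark the shares of all 9155 genes called higher (2.7%) and lower (2.8%). Cholesterol biosynthesis has the longest bar to the right, with 7 of 20, and no list member was called in EGF receptor family, IGF, Notch, oocyte or endometrial lists.

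Probe sets for the same gene seldom had opposite signs, but many of the other probe sets were not called. For 87 of the called genes another probe set exceeded background, 110 probe sets in all. Of these, 102 had the same sign, 30 were called the same way and 0 were called the opposite way. In 32 called genes the dimmer group was identical on its 3 arrays to within 0.01, 5 of them above background, so the spread between pools was not measured in those groups. Among the 168 called genes named by the rule, 110 kept their call whichever in vivo array was left out, and 50 kept it in every alternative that tested them, among them DNASE1L3, GJA1, CDH2, ASCL2, CRIPTO, KLB, FST and PAG8 among the rises and ZAP70, EFHD1, STAT3, KRT5, IL6 and TGFBI among the falls. With the 6 in vivo arrays alone 111 of the 168 lost the call, and 81 with the GAPDH covariate.

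The day effect of in vitro embryos, measured on the other 6 arrays, shared the sign of the in vivo effect in 450 of the 503 called genes. It was called in the same direction in 262 and in the opposite direction in 2. The matching shares of all genes are not given here, and both day effects share 1 estimate of the spread per gene. These counts are therefore no measure of how far the origins agree. The difference between the day effects passed in 96 probe sets (0.4% of all), in 47 of the 9155 genes (0.513%), and in 26 of the 503 genes called in vivo (5.17%). The 503 genes were chosen by the in vivo effect that enters this difference, so their share cannot be compared with 0.513%. The largest was that of BEX4, which rose in vivo and was lower at Day 13 in embryos of in vitro origin, with a difference of day effects of 8.90 ± 0.97 (adjusted p = 0.00833). BEX3 followed with 7.48 ± 1.14 (adjusted p = 0.045). CD48 fell less in vivo than in vitro, where all Day 13 pools were at background, so the in vitro fall and the fitted difference of day effects, 6.21 ± 0.40 (adjusted p = 0.000902), have no exact size. Where 2 groups are compared across origins, the in vitro arrays have lower poly-A spike-in signals at Day 13 (10.9, 11.9 and 14.3, against 15.2 on each in vivo array), and the part of this in the differences was not tested.

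**Figure D5:**
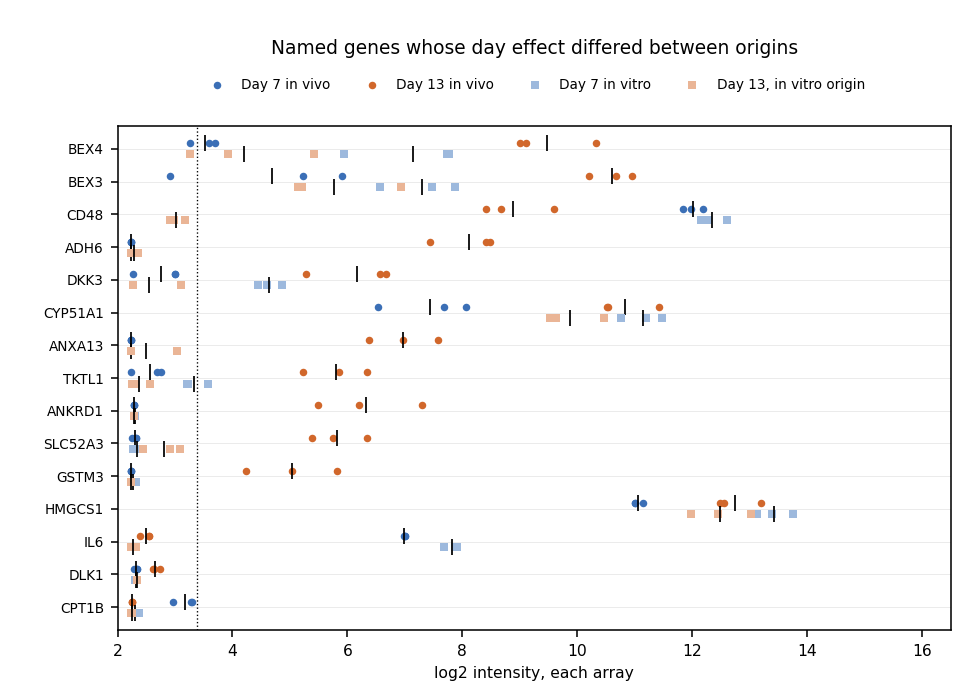
Log2 intensity on each array for the 15 named genes whose day effect differed between origins, ordered by the difference. Circles are in vivo pools (blue Day 7, orange Day 13), squares are pools of in vitro origin (light blue Day 7, light orange Day 13), ticks are group means and the dotted line is the background of 3.39. BEX4 and BEX3 lie higher at Day 13 among the circles and not among the squares, while IL6 and CD48 fall in both origins.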

How the data were processed

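RNA of 12 embryo pools was measured on Affymetrix bovine arrays, 75 ng of total RNA per array with 2 labelling cycles per the labels. The authors deposited normalized log2 intensities, 1 value per probe set and array. RMA, GCRMA and limma are named, without versions, in the submitters' processing notes. Whether RMA or GCRMA made the values is not given in the sources used here. The lowest value is 2.23 and no detection calls are used, so a background of 3.39 came from control probe sets.

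Of 24016 tested probe sets, 13292 carried 1 gene symbol, 86 several and 10638 none in the platform annotation, and the RefSeq table changed 0 symbols. A mean for each of 4 groups was fitted to all 12 arrays with limma 3.58.1 (lmFit and eBayes, R 4.3.3, no trend), with 8 residual and 0.379 prior degrees of freedom, and tested two-sided with Benjamini-Hochberg adjustment at 0.05. An adjusted p beside an "at least" fold belongs to the fit of the deposited values. The fit was tested on simulated data. The number of arrays limits the precision.

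Named genes were the 30 largest rises and 30 largest falls among called genes (no overlap between the days, brighter mean over the median of all probe sets), up to 8 called members of each of 43 gene lists (2041 entries, 1397 measured), the 8 largest differences between origins, and a set of embryo genes. COL4A1, GAPDH, IGF2R, IGFBP7, AQP3 and the markers of other cells were named outside this rule after their values were seen. The members and lists were chosen with earlier results of these data known. Same-numbered Day 7 and Day 13 in vivo arrays correlated in their deviations from the group means at 0.015, -0.353 and -0.214, so numbers were not taken as pairs. Alternatives were fits to the 6 in vivo arrays, quantile normalization, centring on medians or on ribosomal protein genes, an intensity trend, a background filter, array weights, the GAPDH covariate, a replicate block, stricter thresholds and leaving out each in vivo array.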

Additional observations from a re-analysis of the deposited data

Results flagged for a closer look

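The day effect of 15 named genes differed between in vivo and in vitro embryos by the interaction term of the limma fit, given as the in vivo minus the in vitro log2 difference ± SE. Most of them were genes that rose in vivo and were not called higher in vitro. The adaptor genes BEX4 and BEX3 differed by 8.90 ± 0.97 (adjusted p = 0.00833) and 7.48 ± 1.14 (adjusted p = 0.045). The alcohol dehydrogenase gene ADH6 differed by 5.83 ± 0.33 (adjusted p = 0.000512), DKK3 by 5.51 ± 0.58 (adjusted p = 0.00671), the annexin gene ANXA13 by 4.47 ± 0.43 (adjusted p = 0.00474) and the YAP target ANKRD1 by 4.04 ± 0.51 (adjusted p = 0.0171). ADH6, ANXA13 and ANKRD1 were at background on all arrays other than the Day 13 in vivo ones, and DKK3 in the Day 7 in vivo and Day 13 in vitro pools, so these 4 differences are fitted against background values and their size is not exact.

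In cholesterol synthesis CYP51A1 differed by 4.67 ± 0.64 (adjusted p = 0.0274) and HMGCS1 by 2.64 ± 0.41 (adjusted p = 0.0476). The transketolase-like gene TKTL1 differed by 4.21 ± 0.38 (adjusted p = 0.00386), the riboflavin transporter gene SLC52A3 by 3.04 ± 0.34 (adjusted p = 0.00833) and the glutathione transferase gene GSTM3 by 2.83 ± 0.45 (adjusted p = 0.0488). These 3 are fitted against background values too, at Day 7 in vivo and Day 13 in vitro. CD48 differed by 6.21 ± 0.40 (adjusted p = 0.000902) and fell less in vivo than in vitro, where its Day 13 pools were at background. IL6 differed by 1.06 ± 0.09 (adjusted p = 0.00267), but its Day 13 pools were at background in both origins, so how far it fell in either has only a lower bound. DLK1 (0.33 ± 0.04 (adjusted p = 0.0112)) and CPT1B (-0.88 ± 0.11 (adjusted p = 0.0171)) passed with all 12 values at background. Groups of 3 arrays are too small for a test of single outlying arrays.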

How the results depend on the processing

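The 911 probe sets called from Day 7 to Day 13 became 241 with the 6 in vivo arrays alone, 379 at an adjusted p below 0.01, 513 with the GAPDH covariate, 604 with array weights, 1478 with the background filter, which tests fewer probe sets, and 1774 with ribosomal centring, of which 795 were shared with the 911. Quantile normalization (900), median centring (1023), the intensity trend (954), a difference of at least 1 as a second condition (825) and leaving out 1 in vivo array (676 to 923) kept the count within 1.5 times. The share higher, 44.8%, was 19.6% with ribosomal centring, and 55.6% without Day 13 replicate 2. With the replicate block, for numbers that were not shown to pair the pools, 568 were called, 552 of them among the 911, and 46 of 168 named genes lost the call. The 96 probe sets that differed between origins became 47 with the block, 175 with the GAPDH covariate, 188 with ribosomal centring, 278 with the filter and 460 with array weights, whose estimation stopped before its tolerance was reached, and 101 to 193 with 1 array left out (147, 193 and 156 without Day 13 replicate 1, 2 and 3).

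Among named genes, ITGB5 reversed to -0.027 with quantile normalization and to -0.27 with ribosomal centring, and DLK1 to -0.15 with ribosomal centring. The other called genes kept their direction, though 44 lost the call with array weights, 12 with ribosomal centring, 8 with quantile normalization, 3 with the filter, 2 with the trend and 1 with median centring. Causes were not tested. Differences near background and in the 13 genes called with all 6 values there rest on a floor, and 3 pools a day limit all values.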
